A study of Mus musculus with 20 samples.

Results

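The NF-κB genes described here are 10 genes given by name. They encode the 5 subunits of the transcription factor (Nfkb1, Nfkb2, Rel, Rela and Relb), 4 proteins of the IκB family (Nfkbia, Nfkbie, Nfkbiz and Bcl3) and the feedback enzyme A20 (Tnfaip3). They were found by these names among the 27827 gene names of an Agilent whole mouse genome array, where 14 probes measure them. Total kidney RNA of male C57BL/6 mice aged 8 to 12 weeks was measured on 20 arrays, 4 in each of 5 groups. Control mice had neither surgery nor treatment. IRI mice had both renal pedicles clamped for 45 min and were killed 6 h after reperfusion. IRI+Hemin mice had received 25 mg/kg of Hemin, an inducer of heme oxygenase 1, 24 h before this surgery. IPC+IRI mice had been preconditioned by 15 min of ischemia 7 days before the same injury. For Hemin mice the same 25 mg/kg of Hemin is recorded, given 24 h before surgery, with no ischemia. No label names a sham operation, so the clamping and the operation around it cannot be told apart. The study set the groups side by side to ask what IRI changed in kidney RNA and how the changes were modulated by preconditioning or Hemin.

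NF-κB is a family of dimers that wait in the cytoplasm, bound by IκB proteins. Signals from cytokine receptors, Toll-like receptors or cell stress activate the IκB kinase complex, IκB is degraded, and the dimers enter the nucleus and switch on genes of inflammation, cell survival and their own control. The genes for IκBα and A20 are well known NF-κB targets, which closes a negative feedback loop, and several subunit genes are targets too. In the kidney, tubule cells, endothelium and leukocytes all use the pathway. Its activity is set mostly by protein degradation and movement into the nucleus, which arrays of RNA do not measure.

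The promoters of the members are shown first, because binding of NF-κB to its own genes is the basis of this feedback. RefSeq promoters (GRCm38.p6, 250 bases before to 50 after the start of a transcript) were given for 7 of the 10 genes, and none for Nfkb1, Relb and Nfkbiz. The kappaB consensus of 10 bases, searched on both strands, was in at least 1 promoter of 6 of these 7 genes, and in 1388 of all 27025 genes (5.14%). Of all 32851 promoters of this length 4.51% held it. The stretches below lie wholly before the start and are written 5′ to 3′ on the strand of the gene, with the bases of each match in capitals.
Nfkb2, chr19:46304668-46304736, plus strand: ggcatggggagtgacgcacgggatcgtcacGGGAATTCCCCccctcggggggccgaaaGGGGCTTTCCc
Nfkbia, chr12:55492648-55492706, minus strand: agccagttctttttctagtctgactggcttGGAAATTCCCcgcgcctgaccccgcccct
Nfkbie, chr17:45555564-45555633, plus strand: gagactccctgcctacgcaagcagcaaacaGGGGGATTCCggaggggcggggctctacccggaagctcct
Tnfaip3, chr10:19015411-19015565, minus strand: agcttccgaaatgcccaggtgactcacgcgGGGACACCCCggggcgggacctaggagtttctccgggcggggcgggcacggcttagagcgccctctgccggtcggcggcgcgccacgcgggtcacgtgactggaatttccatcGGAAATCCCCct
Rel, chr11:23771021-23771091, minus strand: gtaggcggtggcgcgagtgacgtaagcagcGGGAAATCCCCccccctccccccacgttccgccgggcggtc

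In Nfkb2 and Rel, the first run of capitals holds matches on both strands that overlap each other. Nfkb2 has 3 promoters and Tnfaip3 has 2 in the table, and 1 of each is shown. All 3 of Nfkb2 held a match, whereas the other promoter of Tnfaip3 held none. The single match of Bcl3 lay after the start. The Rela promoter held none, which says only that these letters are not in this window.

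Levels are given as the log2 of the signal of a gene over the 75th percentile of its array, so that 0 is the level of that percentile. The share of genes well above background ran from 57.4% to 67.4% over the arrays. All 9 members other than Rel were well above background on all 20 arrays, so none of them entered a test through the group in which it was high. The 4 arrays of a group shared a scan date and time in the file headers that no other group had. They are taken here as 1 slide, and slides therefore cannot be told apart from groups. Control and IRI were scanned on the same day, IPC+IRI and Hemin together on another, and IRI+Hemin on a different day from both. The marker genes of nephron segments were well above background on all arrays, and their summed log2 level was between 8.62 and 9.16. That of 18 leukocyte markers was 2.35 to 2.77 in Control, 2.49 to 2.97 in Hemin, 3.46 to 4.16 in IRI, 3.44 to 4.49 in IRI+Hemin and 3.76 to 5.49 in IPC+IRI. In IRI vs Control, of 15 tested, S100a8, S100a9, Cd14 and Cd68 were higher, and the lymphocyte genes Cd79a, Cd3g and Cd79b were among those lower. Cd3g and Cd79a passed the filter through Control alone, with 0 and 1 of 4 IRI arrays above background, and S100a8 through IRI alone, with 2 of 4 Control arrays above it. The neutrophil marker Csf3r was above background on 0 of 4 Control arrays and 2 of 4 IRI arrays. This sum was higher in the 3 groups with ischemia, as the members were, while the median log2 fold change of the markers tested in IRI vs Control was -0.12. Their part in the results was not tested. In whole tissue, fewer cells of a type and less RNA per cell cannot be told apart.

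Kidneys 6 h after ischemia had a higher level of nearly every member. Of 9 members tested, 8 were up-regulated in IRI vs Control at an adjusted p below 0.05, and none was down-regulated. Over all 17711 genes tested, 17% were higher and 33.7% lower. Of the genes called, 33.5% were thus higher, and 56.5% after normexp background correction. At least a 2-fold rise was reached by 7 of the 9 members and by 5.97% of all genes. The median log2 fold change was 1.85 for the members and -0.17 for all genes. The members were chosen with earlier results of these data known, and the study lists several of them as up-regulated after IRI. The counts therefore describe the members and are not separate evidence of a rise. The plot of the members by array shows every gene with its group means.

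**Figure D1:**
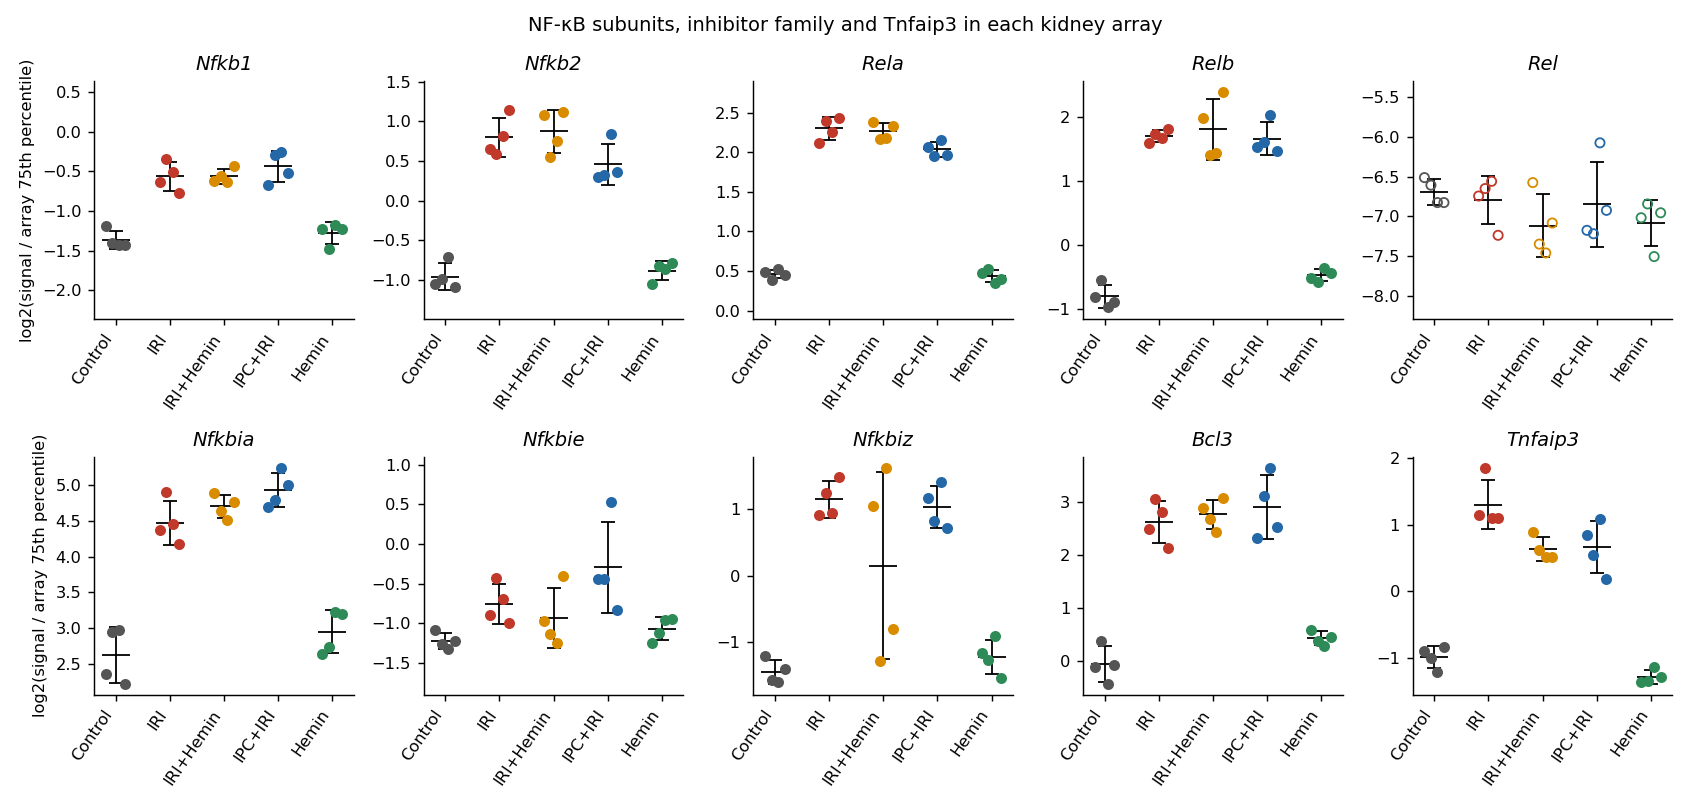
Log2 level of each of the 10 genes (y axis, signal over the array's 75th percentile) on the 4 arrays of each of the 5 groups. Bars give the mean ± SD of 4 arrays, and open points (all of Rel) were not well above background. Except for Nfkbie, Nfkbiz and Rel, the 3 groups with ischemia lie above Control and Hemin on every array.

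Among the subunits, Relb, the partner of the processed product of Nfkb2 in the alternative branch of the pathway, rose most. Its log2 levels were -0.82, -0.56, -0.97 and -0.89 in the 4 Control arrays and 1.59, 1.74, 1.67 and 1.81 in the 4 IRI arrays. The groups were far apart and the IRI arrays lay close together. The log2 fold change was 2.51 (SE 0.18, adjusted p = 1.51e-08), a 5.71-fold rise.

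Nfkb2 encodes p100, which holds Relb back until it is processed to p52. Its levels were -1.06, -0.98, -0.72 and -1.09 in Control and 0.65, 0.59, 0.81 and 1.14 in IRI. No array of the groups overlapped, and the gene rose by 1.76 on the log2 scale (SE 0.16, adjusted p = 1.55e-07).

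Rela encodes p65, the subunit that carries the main transactivation domain of the classical pathway. Its levels were 0.48, 0.39, 0.52 and 0.45 in Control and 2.12, 2.39, 2.26 and 2.43 in IRI. The arrays of each group agreed closely, and the log2 fold change of 1.84 had the smallest error of all members (SE 0.092, adjusted p = 2.65e-10). It was measured by 2 probes (mm9, chr19:5647136-5647195 and chr19:5647632-5647691), which rose by 1.97 and 1.82.

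Nfkb1, the gene of p105 and its product p50, changed least among the measured subunits. Its levels were -1.19, -1.40, -1.43 and -1.42 in Control and -0.63, -0.34, -0.51 and -0.77 in IRI. The groups did not overlap, and the rise was 0.80 (SE 0.12, adjusted p = 2.69e-05) on the log2 scale. The 4 probes of this name lie at separate places on chr3 (mm9, 135247710 to 135281254) and differed in the size of the change. The probe with 10 copies on the array rose by 0.53 in IRI vs Control and the other 3 by between 0.80 and 1.07. They parted further in IRI+Hemin vs IRI, where the differences ran from -0.46 to 0.59, so a single value for Nfkb1 hides probes that went opposite ways there.

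**Figure D2:**
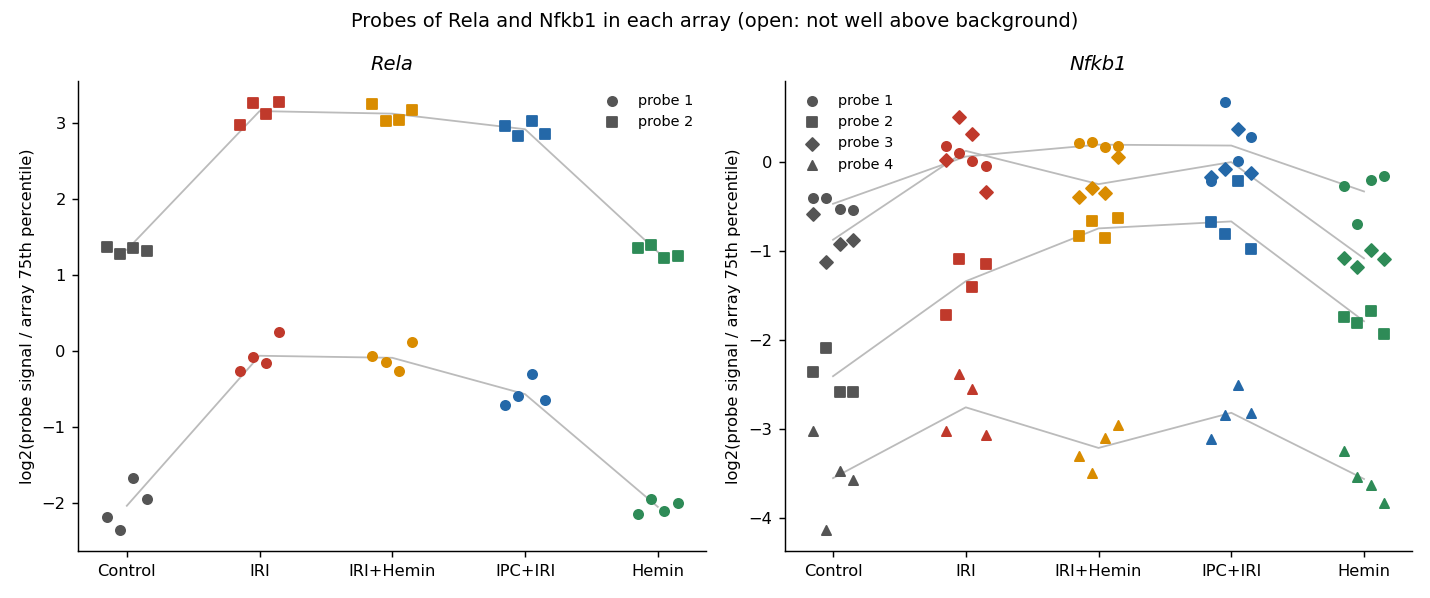
Log2 signal of each probe of Rela (2 probes) and Nfkb1 (4 probes) over the array's 75th percentile (y axis), on 4 arrays in each group, with grey lines through the group means. Probes are numbered by their position on the chromosome, and levels of different probes are not comparable. Both probes of Rela were higher in the groups with ischemia, whereas probe 2 of Nfkb1 was higher in IRI+Hemin than in IRI and probes 3 and 4 were lower.

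Rel encodes c-Rel, a subunit used chiefly by lymphocytes and myeloid cells. Its probe was not well above background on any of the 20 arrays, with a mean processed signal between 1.85 and 2.33 in the groups. The annotation of the array places this probe of 60 bases on only 15 bases (mm9, chr11:23641729-23641743). No fold change is given.

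Of the 4 IκB family genes, 3 were up-regulated in IRI vs Control. Bcl3, a nuclear IκB protein that acts on p50 and p52 dimers, had the largest change of all members. Its levels were -0.10, 0.39, -0.42 and -0.08 in Control and 2.50, 3.07, 2.81 and 2.14 in IRI. The arrays did not overlap, and the log2 fold change was 2.68 (SE 0.26, adjusted p = 3.19e-07), or 6.41-fold.

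Nfkbiz encodes IκBζ, a nuclear cofactor needed for late targets such as Il6 and Lcn2. It was at -1.22, -1.57, -1.61 and -1.41 in Control and at 0.91, 1.25, 0.95 and 1.5 in IRI. The log2 fold change of 2.60 had the largest error of all members (SE 0.44, adjusted p = 0.000116), since the spread is shared by the 5 groups and the gene was uneven in IRI+Hemin.

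Nfkbia, the gene of IκBα, which holds p65 in the cytoplasm and is remade after each pulse of NF-κB activity, was at 2.36, 2.94, 2.97 and 2.22 in Control. In IRI it was at 4.37, 4.90, 4.46 and 4.17. All IRI arrays were more than a log2 unit above all Control arrays, with a log2 fold change of 1.85 (SE 0.20, adjusted p = 1.14e-06).

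Nfkbie, the gene of IκBε, was the member that did not pass the test. Its levels were -1.08, -1.27, -1.32 and -1.22 in Control and -0.89, -0.43, -0.70 and -1.0 in IRI. The groups did not overlap, which in an exact permutation test of 4 against 4 arrays gives the smallest two-sided p possible, 0.029. The log2 difference was 0.47 (95% confidence interval -0.01 to 0.95, adjusted p = 0.0964). It passed with quantile normalization (adjusted p = 0.049) and in a fit of the arrays compared alone (adjusted p = 0.023).

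Tnfaip3 encodes A20, a ubiquitin-editing enzyme that shuts off signaling upstream of the IκB kinases. Its levels were -0.90, -1.01, -1.22 and -0.83 in Control and 1.15, 1.86, 1.10 and 1.10 in IRI. Replicate 2 stood above the other IRI arrays, and all 4 were higher than Control. The log2 fold change was 2.30 (SE 0.19, adjusted p = 5.16e-08), or 4.91-fold.

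The members were also higher than Control in both groups treated before ischemia. In IPC+IRI vs Control all 9 tested members were up-regulated, where 23.1% of all genes were higher and 32.6% lower. The test called 8 in IRI+Hemin vs Control, where 24.4% were higher and 33.1% lower. Both share the Control arrays with IRI vs Control and are not separate evidence of a rise. Without scaling, the share of higher genes among those called went from 41.5% to 75.2% in IPC+IRI vs Control and from 42.4% to 77.4% in IRI+Hemin vs Control. The changes in IPC+IRI vs Control ran from 0.93 for Nfkb1 and Nfkbie (adjusted p = 5.73e-06 and 0.0023) to 2.96 for Bcl3 (adjusted p = 1.19e-07). Nfkbie was 0.28 higher in IRI+Hemin than in Control (95% confidence interval -0.20 to 0.76, adjusted p = 0.298) and did not pass.

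The members did not pass the test in kidneys that had received Hemin without ischemia. In Hemin vs Control limma called 0 of 9, also 0 at an unadjusted p below 0.05, where 18.4% of all genes were called higher and 17.5% lower. The largest difference was that of Bcl3, with levels of 0.59, 0.39, 0.28 and 0.46 in Hemin. It was 0.48 above Control, with a 95% confidence interval of -0.06 to 1.02 (adjusted p = 0.149). Relb, at -0.52, -0.59, -0.37 and -0.44 in Hemin, was 0.33 above Control (interval -0.05 to 0.72, adjusted p = 0.16). Tnfaip3 leaned the other way, at -1.37, -1.35, -1.14 and -1.30, a difference of -0.30 (interval -0.69 to 0.09, adjusted p = 0.223). For Rela and Nfkb2 the intervals were -0.22 to 0.16 and -0.25 to 0.41, so a doubling or halving of either lay outside them. This count depends on the fit and on scaling between arrays. With the compared arrays alone, Bcl3 and Relb passed (adjusted p = 0.046 and 0.043). The median 75th percentile was 273.3 in Hemin and 199.7 in Control, and without scaling 6 members were called higher, Tnfaip3 and Rela were 0.27 and 0.54 above Control, the median of all genes was 0.62 and 94.8% of the genes called were higher, against 51.2% with scaling.

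The groups with ischemia were compared with Hemin kidneys as well as with Control. In IRI+Hemin vs Hemin 8 of 9 members were up-regulated (16.4% of all genes were higher and 27.8% lower), and in IPC+IRI vs Hemin all 9 (13.1% higher and 22.7% lower). Nfkbiz was 1.38 higher in IRI+Hemin than in Hemin (adjusted p = 0.0179), with groups that overlapped, and lost its call in 6 of 19 alternatives. Leaving out IRI+Hemin replicate 3 or 1 gave 0.88 and 1.08 (adjusted p = 0.072 and 0.068). Nfkbie in IPC+IRI vs Hemin, at 0.77 (adjusted p = 0.014), lost its call without scaling (0.64, adjusted p = 0.060), and Nfkb1 in both comparisons and Rela in IPC+IRI vs Hemin lost theirs in the deposited matrix. After normexp background correction the share of higher genes among those called went from 37.1% to 47.2% and from 36.6% to 49.4%. The arrays of IPC+IRI and Hemin were scanned on the same day. There Bcl3 rose by 2.48 (adjusted p = 1.75e-06), Nfkbiz by 2.26 (adjusted p = 0.000798) and Relb by 2.13 (adjusted p = 2.13e-07) on the log2 scale. Tnfaip3 rose by 1.95 (adjusted p = 7.26e-07) and Rela by 1.6 (adjusted p = 2.92e-09). This comparison shares no array with IRI vs Control.

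**Figure D3:**
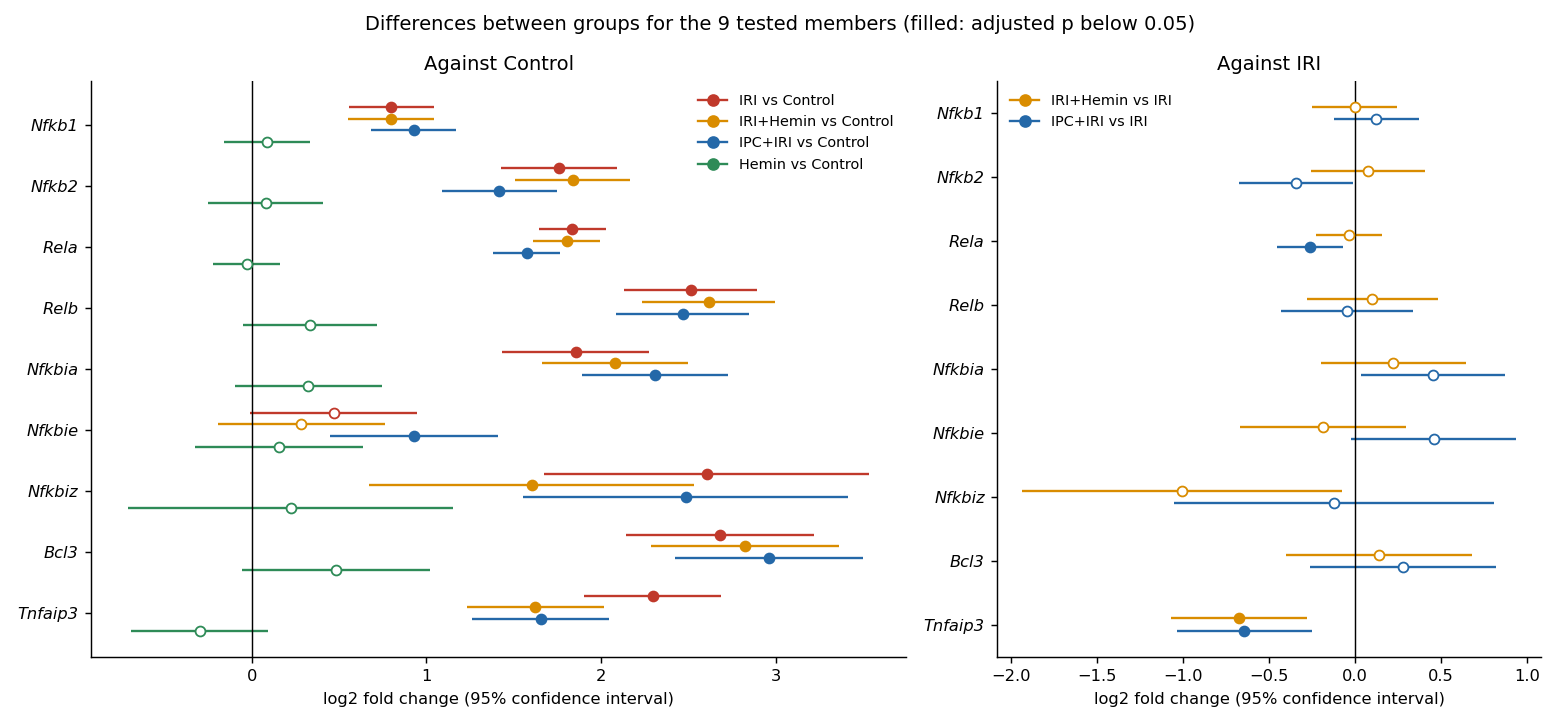
Log2 fold changes with 95% confidence intervals (x axis) for the 9 tested members, against Control on the left and against IRI on the right. Filled points had an adjusted p below 0.05. The 3 groups with ischemia lie near each other for most genes, the Hemin intervals all include 0, and Tnfaip3 lies below 0 against IRI in both treated groups.

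The A20 gene was called lower than IRI in both treated groups. Tnfaip3 levels were 0.89, 0.62, 0.51 and 0.51 in IRI+Hemin and 0.85, 0.54, 1.09 and 0.18 in IPC+IRI. Every array of both groups was below the lowest IRI array, at 1.10, and above every Control array. In IRI+Hemin vs IRI it was the 1 member called, lower by 0.67 (95% confidence interval of the difference -1.07 to -0.28, adjusted p = 0.00753), where 18% of all genes were lower and 26.1% higher. In IPC+IRI vs IRI it was lower by 0.64 (difference -1.03 to -0.25, adjusted p = 0.0103), where 17.7% of all genes were lower and 26% higher. Both comparisons share the IRI arrays. The members' median differences were -0.00 and -0.05, and none was called higher in either. Leaving out IRI replicate 2, the highest, gave differences of -0.49 and -0.46, still with an adjusted p below 0.05. Without scaling between arrays the differences were -0.31 (adjusted p = 0.381) and -0.32 (adjusted p = 0.371), while the median of all genes moved to 0.45 and 0.41 and 91.5% and 90.9% of the genes called were higher, against 59.2% and 59.5% with scaling. In a fit of the arrays compared alone, the IPC+IRI difference had an adjusted p of 0.061. Of 6 endothelial markers, 4 were lower in IPC+IRI vs IRI (Cdh5 by 1.54, Pecam1 by 1.16, Tie1 by 1.13 and Tek by 0.63) and 0 higher. In IRI+Hemin vs IRI, Cdh5 was lower by 1.3, and Kdr and Emcn were higher by 0.73 and 0.72. The summed log2 level of these markers was 3.61 to 4.09 in IRI, 2.99 to 4.48 in IPC+IRI and 4.04 to 4.50 in IRI+Hemin, with all 6 above background on every array of these groups. Their part in the difference of Tnfaip3 was not tested.

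Rela was the other member called in IPC+IRI vs IRI. Its levels were 2.07, 1.95, 2.16 and 1.97 in IPC+IRI, lower than in IRI by 0.26 (difference -0.45 to -0.07, adjusted p = 0.0277), a 1.20-fold difference with groups that overlapped. The 2 probes differed in size here, at -0.50 and -0.24. The call was lost when IRI replicate 2 or 4 or IPC+IRI replicate 2 or 4 was left out, with differences of -0.24 to -0.22. Without scaling between arrays the difference was 0.05 (adjusted p = 0.875). In IRI+Hemin it was at 2.38, 2.17, 2.18 and 2.34 and differed from IRI by -0.03 (-0.23 to 0.16, adjusted p = 0.795).

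The remaining members were not called in either comparison with IRI. Bcl3 was at 2.32, 3.13, 3.65 and 2.53 in IPC+IRI and at 2.89, 2.67, 2.44 and 3.07 in IRI+Hemin. Of the IRI+Hemin arrays, 3 lay within the range of IRI and the other at its upper end, and 2 of the IPC+IRI arrays lay above it. Relb was at 1.52, 1.6, 2.04 and 1.46 in IPC+IRI and at 1.98, 1.41, 1.44 and 2.39 in IRI+Hemin, with intervals of the difference from IRI of -0.43 to 0.34 and -0.28 to 0.48. Nfkb2 was at 0.30, 0.32, 0.84 and 0.36 in IPC+IRI, where 3 of 4 arrays were below every IRI array (difference -0.34, adjusted p = 0.0873). Without replicate 3 the difference was -0.47 (adjusted p = 0.024), and after normexp background correction it was -0.42 (adjusted p = 0.048). Without IRI replicate 4 it was -0.23 (adjusted p = 0.26), and without scaling between arrays -0.02 (adjusted p = 0.953). In IRI+Hemin it was at 1.07, 0.55, 0.76 and 1.12, with 3 arrays within the range of IRI and replicate 2 just below it.

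The IκB genes Nfkbia and Nfkbie had their highest group means in IPC+IRI, without passing the test against IRI. Without scaling between arrays the differences of both were 0.77 and 0.78 and passed (adjusted p = 0.018 and 0.016). Nfkbia was at 4.70, 4.79, 5.25 and 5.0, a difference of 0.46 (0.04 to 0.87, adjusted p = 0.0728). Without IRI replicate 2 the difference was 0.60, with an adjusted p of 0.026. Nfkbie was at -0.44, -0.44, 0.53 and -0.83, a difference of 0.46 (-0.02 to 0.94, adjusted p = 0.112), and replicate 3 was about a log2 unit above the rest. Without replicate 3 the difference was 0.18 (adjusted p = 0.443). The summed leukocyte markers also had their highest mean in this group, and their part in these values was not tested. Leaving out IPC+IRI replicate 4 gave 0.64 and an adjusted p of 0.034. In IRI+Hemin, Nfkbia was at 4.89, 4.64, 4.52 and 4.76 and Nfkbie at -0.97, -1.14, -1.24 and -0.40, with 95% confidence intervals of the difference from IRI of -0.19 to 0.64 and -0.66 to 0.30. Neither gene passed the test there.

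Nfkbiz had the most uneven values of all members, and the unevenness was in IRI+Hemin. Its levels there were 1.06, -1.29, 1.63 and -0.80. Replicates 1 and 3 lay among or above the IRI arrays, and replicates 2 and 4 lay within or just above the range of Control and Hemin arrays. In IPC+IRI it was at 1.17, 0.83, 1.41 and 0.72, close to IRI. The IRI+Hemin mean was 1.0 below IRI on the log2 scale (-1.93 to -0.07, adjusted p = 0.0746) and 1.6 above Control (adjusted p = 0.0051), and this mean lay in the gap between the arrays of the group. Without replicate 3 the difference from IRI was -1.5 (adjusted p = 0.005), and without replicate 1 it was -1.31 (adjusted p = 0.029). Without replicate 2 it was -0.52 (adjusted p = 0.292), and without replicate 4 it was -0.69 (adjusted p = 0.234). After normexp background correction the rise over Control was 1.03 and did not pass (adjusted p = 0.061). Other members did not share this split: in the same 4 arrays, Nfkbia ran from 4.52 to 4.89, Rela from 2.17 to 2.38 and Bcl3 from 2.44 to 3.07.

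The interaction of Hemin and IRI asks if the rise with ischemia differed between kidneys with and without Hemin. limma called 0 of 9 members, also 0 at an unadjusted p below 0.05, where 5.82% of all 19058 genes were called higher and 1.95% lower. All 9 estimates were at or below 0 here, though those of Nfkb2, Rela, Relb and Nfkbia were above 0 under at least 1 other scaling or background correction. The largest was that of Nfkbiz, -1.23 (-2.54 to 0.09, adjusted p = 0.259), which passed without IRI+Hemin replicate 3 (-1.72, adjusted p = 0.049) and was -0.75 without replicate 2 (adjusted p = 0.45). That of Tnfaip3 was -0.37 (-0.93 to 0.18, adjusted p = 0.44). For Rela the interval was -0.28 to 0.27.

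The order of the group means can be read for each gene from these values. In Relb, Bcl3 and Nfkbia neither treated group with ischemia passed the test against IRI, nor did Hemin against Control. In Tnfaip3 the order was IRI, then IPC+IRI and IRI+Hemin, then Control and Hemin, and the means of IPC+IRI and IRI+Hemin, 0.67 and 0.63, differed by less than the SD of either group (0.39 and 0.18). In Rela, IRI and IRI+Hemin came first at 2.30 and 2.27, then IPC+IRI at 2.04, then Control and Hemin at 0.46 and 0.44. Without scaling between arrays this order changed, with Rela 0.055 higher in IPC+IRI and 0.33 higher in IRI+Hemin than in IRI. Between members, the closest match of levels over the 20 arrays, each gene centred on its own mean, was that of Nfkb2 and Rela, with a root mean square difference of 0.18 on the log2 scale.

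Over all 14526 genes well above background on every array, the profiles nearest to the 3 members with the largest rise were searched by the same measure. The nearest gene to Bcl3 was another member, Relb (0.31), followed by Hectd2 and Slc16a6 (both 0.34). The nearest to Relb were the transcript AK087259 (0.24), Ccdc120 (0.25) and Krt8 (0.26), the last a keratin of simple epithelia. The nearest to Nfkbiz were Rhbdf2 and Rell1 (both 0.44) and the transcript ENSMUSG00000055697 (0.56). Rhbdf2, a partner of the protease that releases TNF, was at 0.70, -1.79, 0.44 and -0.83 in IRI+Hemin and between 0.66 and 1.16 in IRI. Rell1, a relative of the TNF receptor family member RELT, was at 3.16, 1.64, 3.08 and 1.29 in IRI+Hemin and between 2.55 and 3.13 in IRI. The same replicates 2 and 4 were low in both as in Nfkbiz, and since the genes were picked for likeness to Nfkbiz this is a description.

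**Figure D4:**
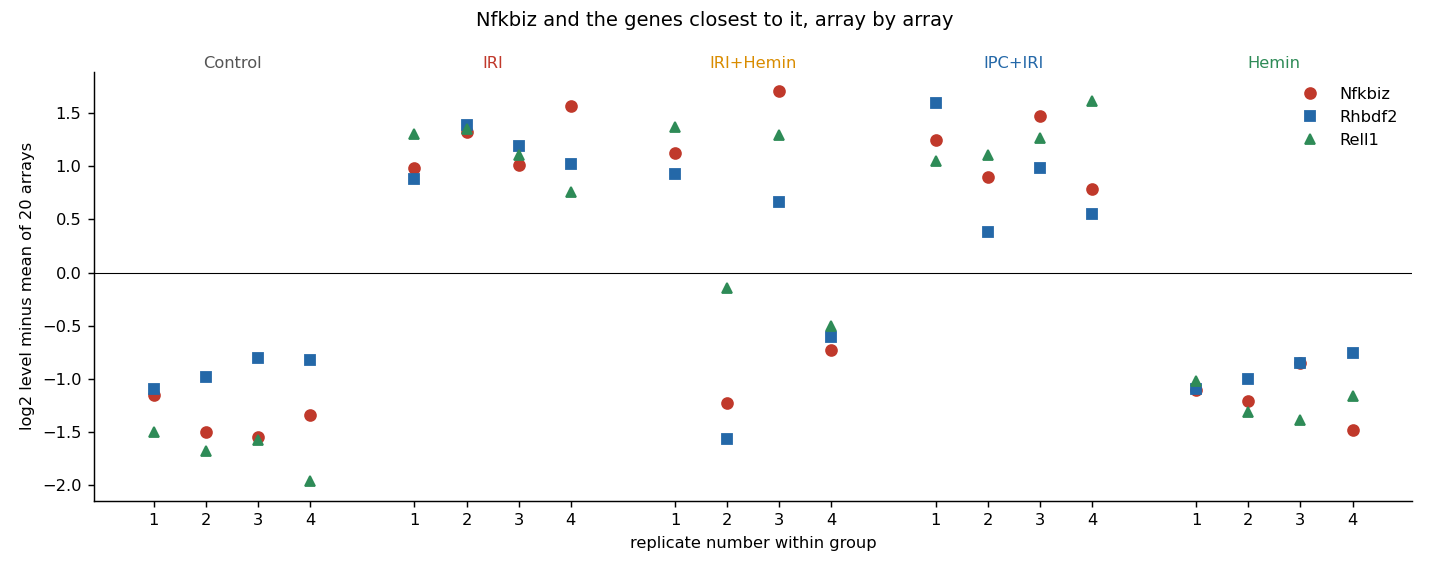
Log2 level of Nfkbiz, Rhbdf2 and Rell1 minus the mean of each over 20 arrays (y axis), by replicate number within each group (x axis). The numbers only name arrays. In IRI+Hemin, replicates 2 and 4 lie below 0 and replicates 1 and 3 above it for all 3 genes.

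The rest of the pathway was followed in 4 lists, of which 75 of 76 genes had a name on the array. In IRI vs Control 68 were tested, with 37 higher and 6 lower, where 17% of all genes were higher and 33.7% lower, and their median log2 fold change was 0.50 against -0.17 over all genes. The share of genes called was not compared between lists. As with the members, the lists were chosen with earlier results of these data known, so their counts only describe these genes.

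Of the 12 kinases and their partners, 4 were higher and 2 lower in IRI vs Control, with a median of 0.30, where 17% of all genes were higher and 33.7% lower. Map3k14 encodes NIK, the kinase that starts processing of p100. It was 1.26 higher (SE 0.17, adjusted p = 1.08e-05) in IRI. Relative to IRI it was lower in IRI+Hemin and in IPC+IRI, by 0.63 and 0.50 (adjusted p = 0.0058 and 0.023). Without scaling these differences were -0.27 and -0.18 (adjusted p = 0.482 and 0.655), and the call in IPC+IRI was lost in 6 of 19 alternatives, among them without IRI replicate 2, IPC+IRI replicate 2 or IPC+IRI replicate 4. Tank, a scaffold of the TBK1 kinase, rose by 0.50 (adjusted p = 0.0055), a rise that had the opposite sign, -0.41, in the deposited log2 matrix. Chuk, the gene of IKKα, rose by 0.38 (adjusted p = 0.0078). Ikbke, the gene of IKKε, fell by 1.27 (adjusted p = 9.65e-05), with 1 of 4 IRI arrays above background, and the difference was 0.04 after normexp background correction. Tab1, listed on the array as Map3k7ip1 and a partner of the kinase TAK1, fell by 0.41 (adjusted p = 0.046). This call was lost in 10 of 19 alternatives.

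Of the 16 adaptors and ubiquitin ligases, 3 were higher and 4 lower, with a median of 0.06, beside the same 17% and 33.7% of all genes. Birc3, the gene of the ubiquitin ligase cIAP2 and itself a known NF-κB target, had log2 levels of -1.41, -1.39, -1.57 and -1.61 in Control and -0.00, 0.39, 0.01 and 0.24 in IRI. It rose by 1.65 (adjusted p = 4.17e-08), with no overlap. Traf3, an adaptor that keeps NIK low, rose by 0.69 (adjusted p = 1.42e-05), and was lower than IRI in IPC+IRI by 0.52 (adjusted p = 0.00036) and in IRI+Hemin by 0.29 (adjusted p = 0.0212). Without scaling these differences were -0.20 (adjusted p = 0.505) and 0.08 (adjusted p = 0.804). Myd88, the adaptor of Toll-like and interleukin 1 receptors, rose by 0.55 (adjusted p = 0.002). Tradd, Traf5 and Irak4 fell by 0.56, 0.51 and 0.50. The fall of Irak4 kept its call in only 5 of 19 alternatives, and it was not present after normexp background correction, at 0.04.

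Of the 17 other inhibitors and brakes tested, 10 were higher and 0 lower in limma, at an adjusted as at an unadjusted p below 0.05, where 17% of all genes were higher and 33.7% lower. The median was 0.42. Irak3, a brake on Toll-like receptor signaling, rose by 1.77 (adjusted p = 0.0038), Zc3h12a by 1.67 (adjusted p = 9.41e-05) and Tnip2, an A20-binding protein, by 1.47 (adjusted p = 2.08e-08). Zc3h12a encodes Regnase-1, which degrades inflammatory mRNAs, and its levels were -2.40, -1.72, -2.02 and -2.51 in IRI and -3.23, -3.79, -3.62 and -3.39 in IRI+Hemin. All 4 IRI+Hemin arrays were below all IRI arrays, a difference of -1.35 (adjusted p = 0.00094). In IPC+IRI it was not lower than in IRI (difference 0.22, adjusted p = 0.54). Tnip2 also rose in Hemin vs Control, by 0.53 (adjusted p = 0.0014).

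Of the target genes, 23 of 30 were tested in IRI vs Control and 20 were higher, where 17% of all genes were. Of the 23, 5 (Cxcl1, Cxcl2, Il6, Ptgs2 and Sele) passed the filter on dim genes through IRI alone. Of the 18 that were above background on all 8 arrays, 15 were higher. The median log2 fold change over the 23 was 2.11, or 1.97 with the 4 genes not above background on any Control array set at their bounds. Il6, a cytokine that was above background on 0 of 4 Control arrays, was at least 15-fold higher in IRI. Lcn2, the lipocalin used as a marker of tubule injury, rose by 5.06 (adjusted p = 1.04e-07). The neutrophil chemokine Cxcl1 was above background on 1 of 4 Control arrays and on all 4 IRI arrays, with log2 levels of -5.65 to -2.50 in Control and 1.75 to 2.75 in IRI.

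Against IRI, 10 of 24 target genes were lower and 3 higher in IRI+Hemin, and 7 of 23 were lower and 4 higher in IPC+IRI. Of all genes, 18% were lower and 26.1% higher in the first comparison, and 17.7% and 26% in the second. These shares depend on scaling: without it 91.5% and 90.9% of the genes called were higher, against 59.2% and 59.5% with it. Saa3, named here because 1 of the 3 higher genes entered through IRI+Hemin alone, was above background on 3 of 4 IRI+Hemin arrays and 0 of 4 IRI arrays, at least 1.93-fold higher. Sele, named for the same reason on the lower side, passed through IRI alone in both comparisons, with 3 of 4 IRI arrays and 1 of 4 arrays of each treated group above background. Ccl2, the monocyte chemokine, was at 2.61, 1.79, 1.74 and 1.91 in IRI, at -0.53, 0.79, -0.25 and -0.22 in IRI+Hemin and at -1.48, 1.49, 0.72 and -0.11 in IPC+IRI. Both treated groups were below every IRI array, by 2.06 and 1.86 on average (adjusted p = 0.0016 and 0.0035). Csf1, the growth factor of macrophages, fell by 1.29 and 1.15 (adjusted p = 0.00015 and 0.00039) in the same comparisons. Ccl2 and Csf1 kept these calls in all 19 alternatives, among them the fit without scaling. Il6 was lower by 1.81 in IRI+Hemin (adjusted p = 0.004) and by 1.17 in IPC+IRI (adjusted p = 0.046). The second call was lost in 11 of 19 alternatives, among them without IPC+IRI replicate 4 (-0.57, adjusted p = 0.178). Lcn2 was also called lower in both comparisons. Its differences in IPC+IRI vs IRI ran from -2.32 to -1.73 over 19 alternatives, all of which kept the call. Those in IRI+Hemin vs IRI ran from -1.58 to -0.95, and 5 of 19 alternatives lost the call. Cxcl1 differed from IRI by 0.11 and -0.00 (adjusted p = 0.88 and 1.00) in IRI+Hemin and IPC+IRI. In the interaction of Hemin and IRI, these chemokine and growth factor genes were the 2 pathway genes called, at -2.34 for Ccl2 (adjusted p = 0.0325) and -1.06 for Csf1 (adjusted p = 0.0361). Of 69 pathway genes tested, 0 were higher and 2 lower, where 5.82% of all genes were higher and 1.95% lower. Ccl2 lost this call in 10 of 27 alternatives and Csf1 in 16 of 27.

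**Figure D5:**
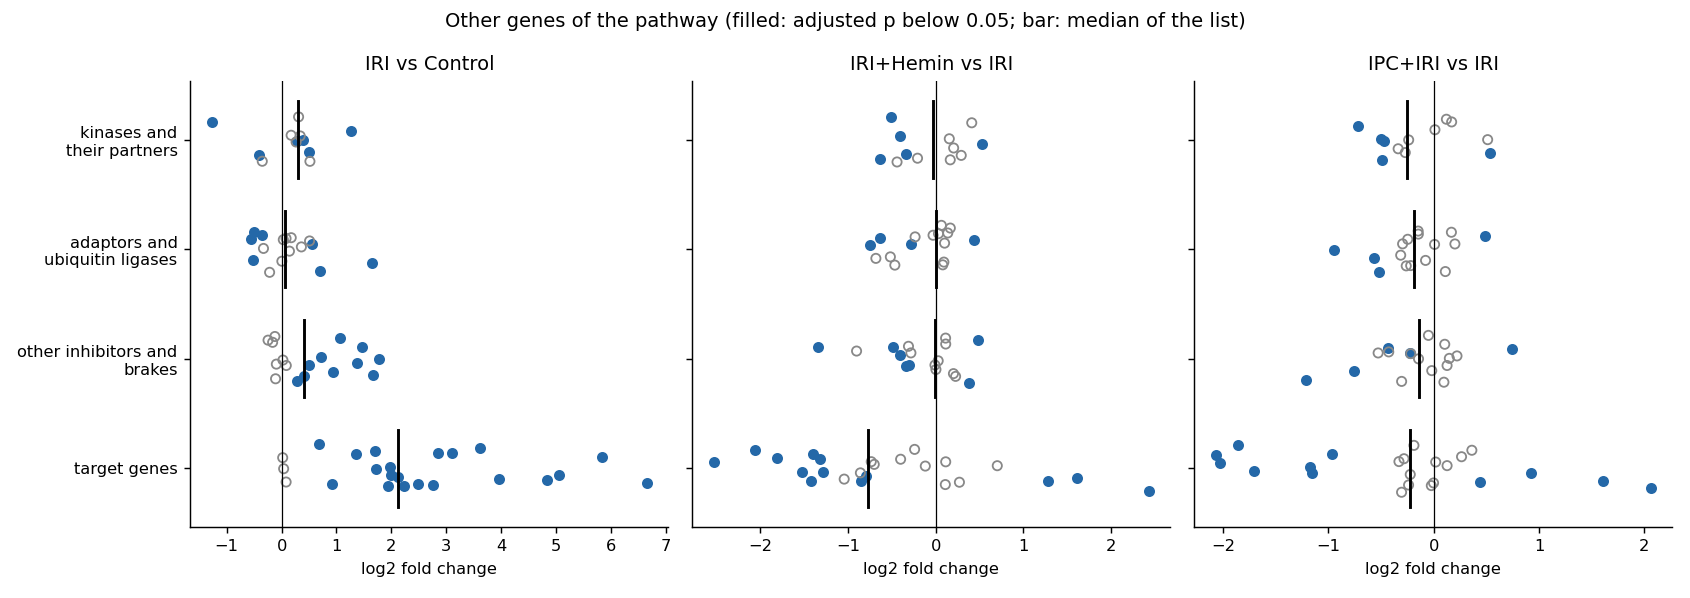
Log2 fold change (x axis) of each tested gene of 4 pathway lists (rows) in 3 comparisons (columns), the first with Control and the others with IRI. Filled points had an adjusted p below 0.05 and the vertical bar is the median of the list. Target genes lie mostly above 0 in IRI vs Control, and the median of the list is below 0 in both comparisons with IRI, at -0.77 and -0.22.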

How the data were processed

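The members and the lists were chosen with earlier results of these data known. The authors deposited the scanner output of 20 single-colour arrays, in which each spot has an intensity after background subtraction by Agilent Feature Extraction 9.5.3.1 per the file headers. The deposited log2 matrix holds the same processed signal, without scaling between arrays (100% of the values compared within 0.001). Groups follow the labels. Flagged spots were removed, and 43379 spots gave 41174 probes. Probes of a gene name were averaged, signals were divided by the 75th percentile of the array and the log2 was taken. Genes with at most 1 missing value and at least 3 of 4 arrays of either group well above background were tested with limma 3.58.1 (R 4.3.3), 5 group means and 15 residual degrees of freedom, with Benjamini-Hochberg adjustment per comparison, in place of SAM, which the authors used. The fit was tested on simulated data. A bound sets a group that was not above background at the lowest signal well above it. Named genes are all members, the 3 pathway genes of each list with the largest called rise and fall in IRI vs Control, those called in the interaction, and the 3 nearest profiles of the 3 members that changed most. The labels do not say that arrays of a group came from separate animals, so p-values measure the spread between arrays, whose number limits the precision. Alternatives were other scalings, background corrections, probe summaries and filters, the deposited matrix, the compared arrays alone, a replicate block, a fold limit of 2 and each array left out. The slide as a random block could not be fitted.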

Additional observations from a re-analysis of the deposited data

Results flagged for a closer look

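Of 50 sets of 4 arrays (10 genes in 5 groups), 3 had an array far from the other 3 by Dixon's criterion, which chance alone meets in about 1 set in 20. These were Nfkb1 in Control replicate 1, at a log2 level of -1.19, Nfkb2 in IPC+IRI replicate 3, at 0.84, and Tnfaip3 in IRI replicate 2, at 1.86.

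The test of the difference in the change with IRI between kidneys with and without Hemin called 2 of 69 pathway genes, both lower, where 1.95% of all genes were lower. The interaction was -2.34 for Ccl2 (adjusted p = 0.0325), with values between -2.62 and -1.55 over 27 alternatives, of which 10 ended the call. It was -1.06 for Csf1 (adjusted p = 0.0361), with values between -1.27 and -0.87 over the same alternatives, of which 16 ended it.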

How the results depend on the processing

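Over all comparisons and alternatives, 1497 values of the members kept direction and side of the threshold, 25 lost their call, 29 gained one and 56 changed sign. The cause of a change was not tested. Members called in Hemin vs Control went from 0 to 6 without scaling between arrays, 5 with the deposited log2 matrix and 2 with the compared arrays alone. In IPC+IRI vs IRI, the 2 calls became 0 at a fold limit of 2, 0 with the compared arrays alone and 1 with the replicate block, which lost Rela (adjusted p = 0.051), and 1 to 3 with an array left out. Without scaling there were also 2, but both higher (Nfkbia and Nfkbie) in place of both lower. In IRI+Hemin vs IRI, the 1 call became 0 at a fold limit of 2, 0 without scaling, 0 with the deposited matrix, 2 with normexp and 1 to 2 with an array left out. The interaction had 0 calls, and 0 to 1 with an array left out. Pathway genes called in IRI vs Control fell from 43 to 26 at a fold limit of 2 and to 24 with the deposited matrix. Same-numbered arrays of different groups did not deviate together (median r = -0.031 over 40 pairs, from -0.379 to 0.210), so they share only a number. The slide as a random block was not run, since it could not be fitted. Signal over background limits Rel on every array.

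These log2 differences changed sign. In Hemin vs Control, normexp gave -0.029 for Nfkb1, -0.072 for Nfkb2 and 0.020 for Rela. The percentile of detected probes gave -0.028 and -0.036 for Nfkb1 and Nfkb2. No scaling and the deposited matrix both gave 0.54 for Rela and 0.27 for Tnfaip3. In IPC+IRI vs IRI, no scaling gave 0.055 for Rela, 0.27 for Relb and 0.20 for Nfkbiz (0.20 with the deposited matrix). In IRI+Hemin vs IRI, no scaling gave 0.36 for Nfkb1, 0.33 for Rela and 0.18 for Nfkbie, and the deposited matrix 0.48, 0.33 and 0.27. There the brightest probe gave 0.13 for Nfkb1, and normexp 0.014 for Rela. For the interaction, normexp gave 0.26 for Nfkb2, 0.041 for Relb and 0.19 for Nfkbia, the percentile of detected probes 0.080 for Nfkb2 and 0.076 for Rela, and quantile normalization 0.014 for Rela. Among pathway genes, the deposited matrix gave -0.41 for Tank, and normexp 0.038 for Ikbke and 0.035 for Irak4 in IRI vs Control. No scaling and the deposited matrix both gave 0.035 for Traf5 in IRI+Hemin vs Control, 0.078 for Traf3 and 0.023 for Chuk in IRI+Hemin vs IRI, and 0.20 and 0.16 for Traf3 in Hemin vs Control.

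With 1 array left out, signs changed for values near 0. In IRI+Hemin vs IRI the ranges were -0.071 to 0.073 for Nfkb1, -0.0051 to 0.19 for Nfkb2, -0.094 to 0.012 for Rela, -0.093 to 0.23 for Relb and -0.022 to 0.29 for Bcl3. That of Relb in IPC+IRI vs IRI was -0.17 to 0.019, and that of Nfkbie in IRI+Hemin vs Hemin -0.051 to 0.23. For the interaction they were -0.084 to 0.11 for Nfkb2, -0.067 to 0.039 for Rela and -0.22 to 0.043 for Nfkbia.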
